A study of Mus musculus with 8 samples.

Results

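The genes considered are *Klhl24*, the 5 kainate receptor subunit genes *Grik1* to *Grik5* and the 2 genes for their Neto auxiliary proteins, *Neto1* and *Neto2*. They make 8 of the 45706 genes in the deposited table. *Klhl24*, whose product interacts with kainate receptors, was selected because it was higher after MCH in these data, and the other 7 as the receptor genes that go with it. The values that chose *Klhl24* are therefore described without a test. All 8 genes passed the filter on low counts that left 14962 genes.

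The cells were hippocampal neurons of wild-type C57/Bl6 mice, taken at embryonic day 18 and grown as primary cultures until day 12 to 14 in vitro, with 5-fluoro-2′-deoxyuridine added to limit glia. Wells were given the peptide melanin-concentrating hormone (MCH) at 1 µM or its vehicle, water, and RNA was taken 4 h later from 4 wells of each treatment. The sample labels carry a model entry of Alzheimer's disease beside a wild-type genotype, and no mutant allele is named for these wells. The methods describe 2 independent cultures with 2 wells of each treatment, but the labels do not say which replicate number came from which culture, so *P* values measure the spread between wells, part of which may be technical. Stranded poly-A libraries held 26083936 to 31844861 estimated counts on genes per well. In such bulk samples, fewer cells of a type and less RNA per cell cannot be told apart.

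The culture was checked against marker genes. Among the 6 general neuronal markers *Snap25*, a protein of synaptic vesicle release, had the highest level, at a mean of 1496 TPM (a level per transcript, that is, reads scaled for transcript length and library depth to the same total in every well). *Slc17a7*, the vesicular glutamate transporter, led the 6 excitatory markers at 847 TPM, and *Sst*, the neuropeptide somatostatin, led the 7 inhibitory markers at 2479 TPM. Astrocyte markers were present and were led by the filament gene *Gfap* at 293 TPM. *Mog*, a gene of mature oligodendrocytes, and *Sox10*, a regulator of that lineage, were at 0 in all 8 wells, and the 6 microglial markers together reached 4.71 to 13.6 TPM.

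Kainate receptors are glutamate-gated cation channels made of 4 subunits, found on both sides of hippocampal synapses and best known at the mossy fibre synapse onto CA3 cells. The products of *Grik1*, *Grik2* and *Grik3* can form channels on their own, whereas those of *Grik4* and *Grik5* bind kainate with high affinity and need a partner from the first set. Neto1 and Neto2 are membrane proteins with CUB domains that assemble with the channels and slow their kinetics. Klhl24 is a protein of the BTB and kelch family. Proteins of this family bring substrates to the cullin 3 ubiquitin ligase, and Klhl24 binds the subunit made from *Grik2* and alters the currents of the receptor.

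On GRCm38 (GENCODE vM21) *Klhl24* lies at chr16:20097542-20129221 on the plus strand and *Grik1* on the minus strand of the same chromosome, at chr16:87895900-88290265. *Grik2* lies at chr10:49094833-49788766, *Grik4* at chr9:42518135-42944493, *Grik5* at chr7:25009849-25072346 and *Neto2* at chr8:85636588-85700924, all on the minus strand. *Grik3* lies at chr4:125490700-125714173 on the plus strand. The first sequences shown are 60 coding bases from the pore loop of each subunit, because they show at once how alike the genes are where the ion path is built. The capitals mark the glutamine codon that RNA editing can turn into an arginine codon in *Grik1* and *Grik2* (the Q/R site). The genes hold the same codon there, and the count tables carry no reading of the editing itself. In *Grik1*, *Grik2* and *Grik3* the stretch runs across an intron, so their coordinates span more than 60 bases (chr16:87936084-87940565, chr10:49240765-49244352 and chr4:125691186-125693993). In *Grik4* (chr9:42547587-42547646) and *Grik5* (chr7:25022461-25022520) it lies within 1 exon.
Grik1: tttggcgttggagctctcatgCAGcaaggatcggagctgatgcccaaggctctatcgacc
Grik2: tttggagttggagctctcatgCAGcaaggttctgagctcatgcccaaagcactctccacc
Grik3: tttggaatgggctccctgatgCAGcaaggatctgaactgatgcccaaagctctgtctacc
Grik4: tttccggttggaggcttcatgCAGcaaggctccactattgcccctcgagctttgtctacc
Grik5: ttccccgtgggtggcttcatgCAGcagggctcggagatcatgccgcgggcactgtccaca

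Within this stretch *Grik1* and *Grik2* were identical at 52 of 60 bases, and *Grik3* matched each of them at 48. *Grik4* and *Grik5* matched each other at 41 and the other subunits at 36 to 41. Over the whole coding sequences the longest exact run shared by 2 subunits was 38 bases, between *Grik3* and *Grik5*, and the shortest was 13 bases, between *Grik2* and *Grik4*. *Neto1* and *Neto2* shared at most 22 bases in a row.

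The second sequence is an exon of *Grik1*, shown because its use separates the main pair of *Grik1* transcripts compared further on. It holds 87 coding bases at chr16:87896809-87896895 on the minus strand. The capitals mark the exon, and 12 bases of the neighbouring exons stand on each side in lower case.
Grik1 exon: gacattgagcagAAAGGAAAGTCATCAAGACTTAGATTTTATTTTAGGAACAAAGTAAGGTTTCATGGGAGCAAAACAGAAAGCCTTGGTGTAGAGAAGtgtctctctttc

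The third is the start of the *Klhl24* coding sequence, shown to identify the gene on which the group was built, with the start codon in capitals. It comes from 1 exon at chr16:20106724-20106813. In the deposited tables the gene has a single transcript of 6683 bases, to which all its reads were assigned. The reading frame in GENCODE vM21 is 1800 bases long, so the reads are not limited to it.
Klhl24 coding start: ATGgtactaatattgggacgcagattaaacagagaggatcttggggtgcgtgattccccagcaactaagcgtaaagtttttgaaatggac

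*Klhl24* was at 62.1, 60.1, 68.4 and 65.5 CPM (read counts scaled to the same library size in every well, by the trimmed mean of M-values, TMM) in vehicle wells 1 to 4. It was at 81.9, 78.0, 85.4 and 86.6 CPM in MCH wells 1 to 4. The lowest MCH well lay above the highest vehicle well, a separation that 6.03% of the 14962 tested genes also had, in either direction. The means were 64.0 ± 3.67 CPM (SD, n = 4) with vehicle and 83.0 ± 3.86 CPM (SD, n = 4) with MCH, a log2 fold change of 0.37 ± 0.05 (SE), or 1.30-fold. The difference was of like size in both pairs of replicates, 0.39 on the log2 scale in replicates 1 and 2 and 0.36 in replicates 3 and 4. Since the gene was selected on this contrast, these values describe it and are not evidence that it changed.

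**Figure D1:**
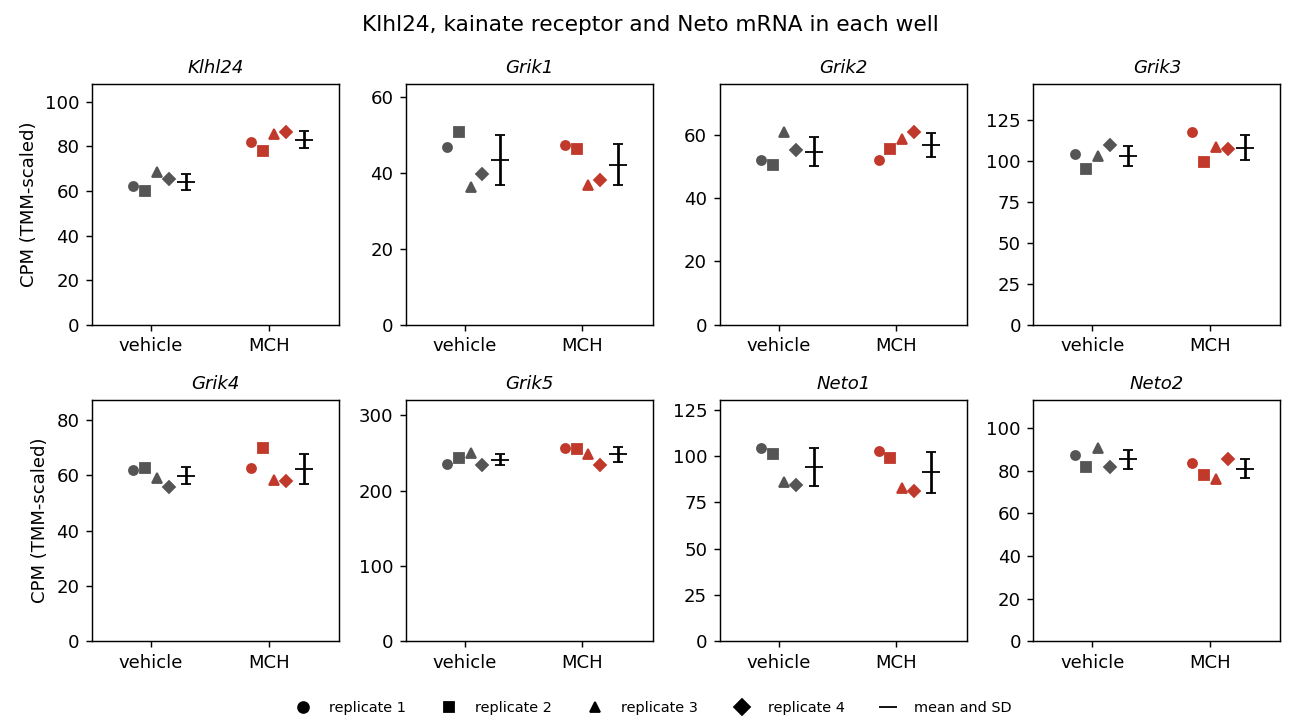
Each panel shows 1 gene in TMM-scaled CPM on a linear axis from 0, with the 4 vehicle wells in grey and the 4 MCH wells in red, the replicate number as the marker shape, and the mean with its SD beside them. *Klhl24* was at 60.1 to 68.4 CPM with vehicle and 78.0 to 86.6 CPM with MCH, whereas the treatments overlap in the other 7 panels.

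The question for the other 7 genes was whether the receptor and its auxiliary proteins differed between the treatments at the level of mRNA. No *Grik* or *Neto* gene passed the test, and each had overlapping wells. With edgeR's quasi-likelihood test, adjusted over the 14962 genes tested, 0 of the 7 were called, beside 35 genes or 0.234% of all. Their adjusted *P* values ran from 0.77 to 0.999, and 0 of the 7 had an unadjusted *P* under 0.05, with 1272 such genes in all. DESeq2 and limma voom also called 0 of the 7. With the replicate number as a block, which takes the number of genes called from 35 to 596 (3.98%), again 0 of the 7 were called, and their lowest adjusted *P* was 0.352.

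*Grik5*, a high-affinity subunit, was at 236, 243, 250.0 and 234 CPM in vehicle wells 1 to 4 and at 256, 255, 248 and 234 CPM in MCH wells 1 to 4. MCH wells 1 and 2 were the highest of the 8, and MCH well 4 was level with the lowest vehicle well. The log2 fold change was 0.04 (95% interval −0.05 to 0.13), and the interval in folds ran from 0.967 to 1.10.

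*Grik4*, the other high-affinity subunit, was at 61.8, 62.6, 59.2 and 55.8 CPM with vehicle and at 62.5, 69.7, 58.4 and 57.9 CPM with MCH. The MCH range held all vehicle wells but the lowest, and MCH well 2 stood above the rest. On the log2 scale the difference was 0.05 (95% interval −0.09 to 0.20).

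Among the subunits that form channels on their own, *Grik1* had vehicle wells at 46.8, 50.8, 36.2 and 39.8 CPM and MCH wells at 47.3, 46.4, 36.7 and 38.2 CPM. In both treatments wells 1 and 2 were high and wells 3 and 4 low, so the spread within a treatment was far larger than the difference between the means, 43.4 ± 6.60 and 42.2 ± 5.45 CPM (SD, n = 4). The log2 fold change was −0.04 with the widest interval of the 7, −0.32 to 0.24.

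*Grik2*, whose product Klhl24 binds, was at 52.2, 50.6, 61.0 and 55.3 CPM with vehicle and at 52.1, 55.6, 58.7 and 61.0 CPM with MCH. The treatments covered nearly the same range, with a log2 fold change of 0.05 (95% interval −0.10 to 0.21).

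*Grik3* was at 104, 95.4, 103 and 110 CPM with vehicle and at 118, 99.2, 108 and 107 CPM with MCH. MCH well 1 was the highest and vehicle well 2 the lowest, and the other 6 wells lay between 99.2 and 110 CPM. MCH minus vehicle gave 0.07 on the log2 scale (95% interval −0.07 to 0.20).

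*Neto1*, on chromosome 18, was at 104, 101, 85.8 and 84.4 CPM with vehicle and at 103, 98.9, 82.9 and 81.0 CPM with MCH. As with *Grik1*, wells 1 and 2 were high and wells 3 and 4 low in both treatments. MCH minus vehicle gave −0.04 on the log2 scale (95% interval −0.27 to 0.19).

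*Neto2* was at 87.4, 81.9, 90.5 and 81.7 CPM with vehicle and at 83.8, 78.1, 76.3 and 85.6 CPM with MCH. Both of the lowest wells were MCH wells, yet MCH well 4 was above 2 vehicle wells. The log2 fold change was −0.08 (95% interval −0.19 to 0.04), the lowest of the group. Over the 7 genes 4 had a value above 0 and 3 below, with a median of 0.04 against −0.0027 over all tested genes. *Neto1* was lower with MCH in 4 of 4 same-number pairs of wells, with an adjusted *P* of 0.573 with the replicate block. Without a block, the values of *Grik1*, *Neto1* and *Grik4* changed sign when single wells were left out, which also leaves the sides unequal between the treatments.

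**Figure D2:**
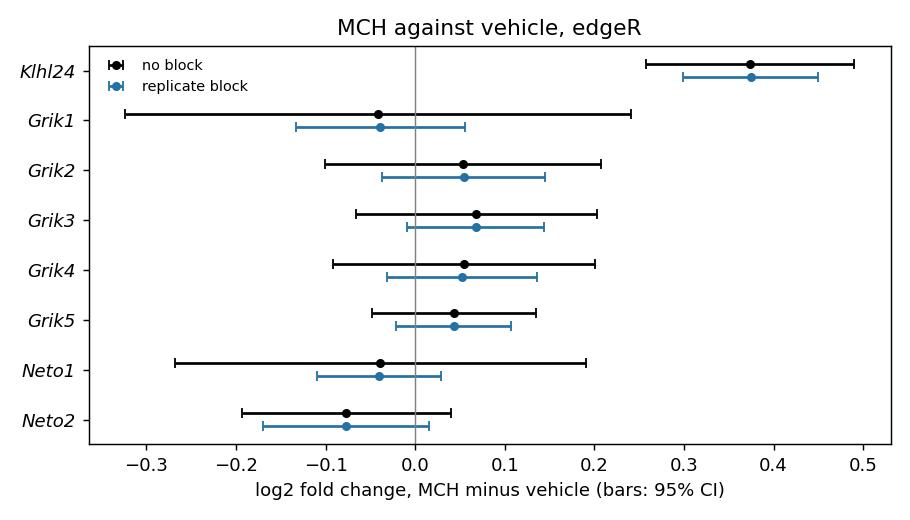
Points give each gene's log2 fold change, MCH minus vehicle, from edgeR without a block (black) and with the replicate number as a block (blue), and bars the 95% interval. The bars of all 7 *Grik* and *Neto* genes cross 0 in both fits and are narrower with the block, while *Klhl24*, selected on this contrast, is at 0.37 in both.

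Levels were compared between genes only per length, in TPM. *Grik5* was the most abundant subunit mRNA, at 110 to 119 TPM in vehicle wells (mean 113 ± 3.96, SD, n = 4), and *Neto1* followed at 43.5 to 53.4 TPM. These 2 did not overlap with each other or with any other gene of the group. *Grik1* (25.9 to 35.6 TPM), *Grik4* (25.4 to 28.7 TPM), *Neto2* (25.5 to 28.8 TPM) and *Grik2* (21.1 to 25.7 TPM) came next, and each overlapped with its neighbour in the order. *Grik2* also overlapped with *Grik3* (18.2 to 21.3 TPM), by 21.1 against 21.3 TPM. *Klhl24* was lowest with vehicle, at 15.6 to 18.1 TPM, just under the lowest *Grik3* well, and with MCH it was at 20.7 to 23.1 TPM, overlapping with both *Grik3* and *Grik2*. Among 36 *Klhl* genes of the table *Klhl24* was the 11th by mean TPM over the wells of both treatments, which include the MCH wells it was selected on.

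**Figure D3:**
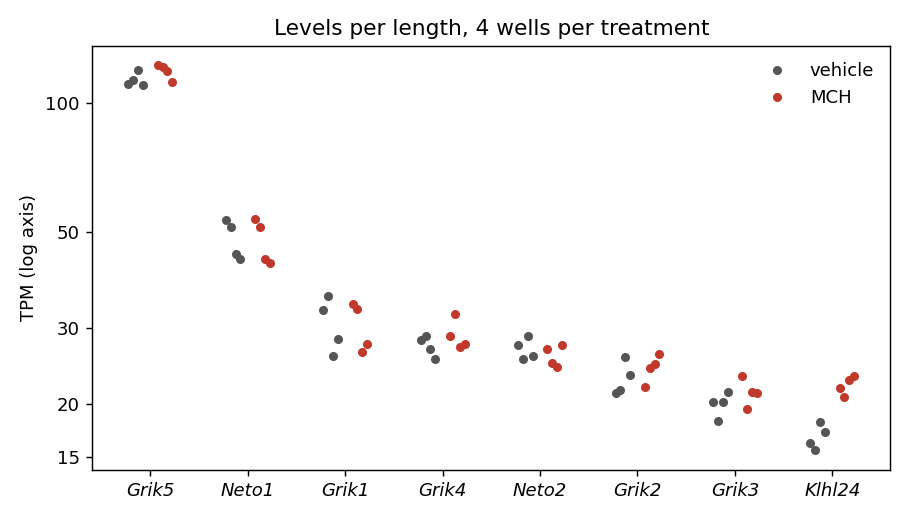
Each point is 1 well, in TPM on a log axis, with vehicle in grey and MCH in red and the genes ordered by their vehicle mean. *Grik5* stands alone at 110 to 122 TPM and *Neto1* at 42.5 to 53.7 TPM, and the other genes fill the range from 15.6 to 35.6 TPM.

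*Grik5* made up 52.0% to 54.7% of the summed TPM of the 5 subunits in every well. *Grik1* held 11.9% to 16.4%, *Grik4* 12.17% to 14.01%, *Grik2* 9.50% to 12.2% and *Grik3* 8.40% to 10.2%. The mRNA of the partner-dependent pair *Grik4* and *Grik5* thus outweighed that of the other 3 subunits in each well. *Neto1* exceeded *Neto2* by 1.55 to 2.07 times. Of the summed TPM of kainate, AMPA and NMDA receptor subunits, kainate subunits took 14.7% to 16.4%, AMPA subunits 54.1% to 59.1% and NMDA subunits 25.7% to 30.4%. A share of mRNA says nothing of the share of receptors at the membrane.

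These levels rest on the transcript models the reads were assigned to. The deposited model of *Neto1* is 3531 bases long and that of GENCODE vM21 8352, and for *Klhl24* the lengths are 6683 and 8172 bases. For the *Grik1* transcript with the most reads, ENSMUST00000023652, they are 2601 and 3554 bases. This deposited *Grik1* model is even shorter than the GENCODE vM21 coding sequence of 2715 bases. For *Grik5* the lengths are 3836 and 3763 bases. For *Grik2*, transcripts in GENCODE vM21 held 11.3% of the reads. A further 6 transcripts of the deposited tables were assigned to the gene because their reads bring the sum to its count in all 8 wells. That match chose them and is no separate check of the assignment.

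At the transcript level 0 of 33527 transcripts (0%) were called between the treatments with edgeR, with 1476 at an unadjusted *P* under 0.05, and the replicate block also called 0. *Klhl24*, *Grik3*, *Grik5*, *Neto1* and *Neto2* each had 1 transcript with reads. *Grik1* had a main pair. ENSMUST00000023652, without the 87-base exon shown above, held 64.1% of the reads of the gene, and ENSMUST00000072256, with it, 35.3%. The exon-containing transcript made up 35.1%, 36.7%, 41.5% and 32.6% of the pair by TPM in vehicle wells 1 to 4. In MCH wells 1 to 4 it made up 30.5%, 28.5%, 37.1% and 37.3%. MCH wells 1 and 2 were lowest, and the treatments overlapped. The means were 36.5% ± 3.77 and 33.4% ± 4.53 (SD, n = 4). A two-sided exact permutation test over the 70 assignments gave *P* = 0.371, with 0.0286 the smallest that free assignment of the wells allows. Neither a pairing by replicate number nor the sides entered this test or the one for *Grik4* below.

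*Grik4* also had a main pair, ENSMUST00000034515 with 67.3% of the reads and ENSMUST00000114865 with 32.7%. Both carry the same coding exons and differ in untranslated exons. The second made up 19.2% to 24.2% of the pair by TPM with vehicle and 18.6% to 23.0% with MCH (two-sided exact permutation test, *P* = 0.657). After adjustment over these 2 shares both *P* values were 0.657. *Grik2* was dominated by ENSMUST00000105487, with 78.8% of the reads and 1101 to 1370 estimated reads per well. This transcript is among those assigned to *Grik2* by the sum of reads, as described above. Its remaining transcripts each held under 10% of the reads. ENSMUST00000079751 ran from 0 to 219 reads over the 8 wells, ENSMUST00000105485 from 0 to 233 and ENSMUST00000105484 from 0 to 207, whereas ENSMUST00000147808 stayed at 33.8 to 59.5 reads. No share was compared for them. How the reads of a gene divide among its transcripts is an estimate, and its uncertainty is not part of these tests.

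**Figure D4:**
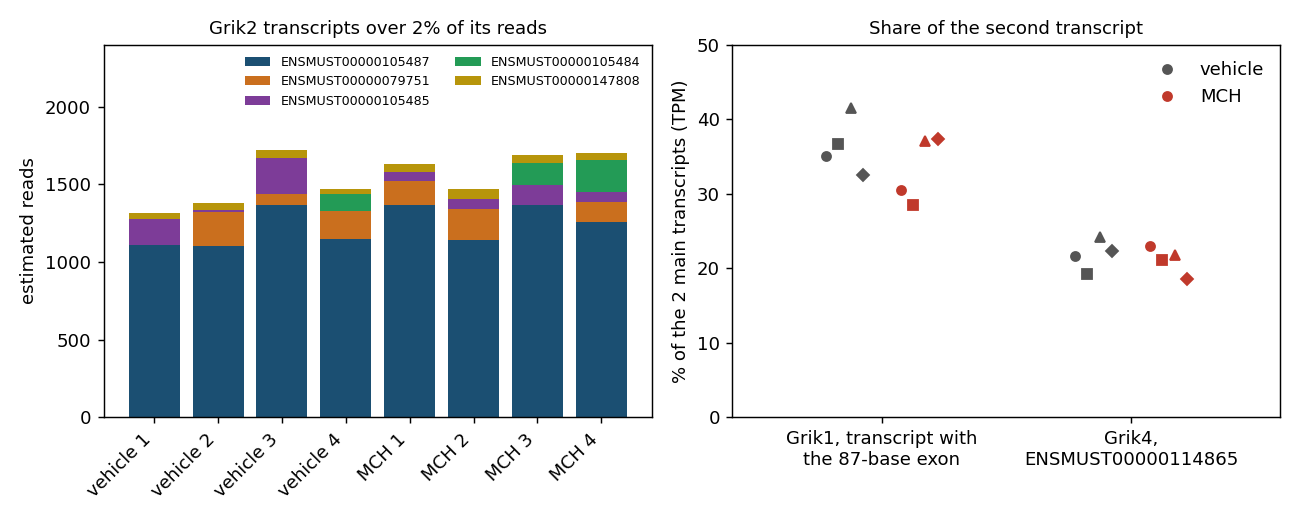
Left, estimated reads of the *Grik2* transcripts with over 2% of the gene's reads, stacked per well, where ENSMUST00000105487 fills most of each bar, ENSMUST00000147808 is a thin band in every well, and the other 3 are at 0 in some wells. Right, the share of the second main transcript of *Grik1* and of *Grik4* in percent of the pair by TPM, 1 point per well with the marker as the replicate number. For *Grik1* vehicle wells lie between 32.6% and 41.5% and MCH wells between 28.5% and 37.3%.

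The wells fell into sides that the treatment does not explain, replicates 1 and 2 against replicates 3 and 4, and 3 of the 8 genes followed them. Each of *Grik1*, *Neto1* and *Grik4* had all 4 wells of replicates 1 and 2 above all 4 wells of replicates 3 and 4. Such a separation, in either direction, was found for 4422 of the 14962 tested genes (29.6%), so 3 of 8 does not set these genes apart. *Grik1* was at 46.4 to 50.8 CPM in replicates 1 and 2 and at 36.2 to 39.8 CPM in replicates 3 and 4. *Neto1* was at 98.9 to 104 and 81.0 to 85.8 CPM, and *Grik4* at 61.8 to 69.7 and 55.8 to 59.2 CPM. *Grik2* leaned the other way with overlap, at 50.6 to 55.6 and 55.3 to 61.0 CPM. *Klhl24* was lower in replicates 1 and 2 within each treatment, by 0.12 on the log2 scale on average.

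Markers of several cell types moved with the same sides. The 7 inhibitory markers summed to 4771 to 5065 TPM in replicates 1 and 2 and to 3058 to 3787 TPM in replicates 3 and 4, and 6 of the 7 were separated by side. The 6 excitatory markers summed to 1720 to 2010 and 1427 to 1554 TPM, with 4 of 6 separated. The 7 astrocyte markers summed to 393 to 438 and 1133 to 1340 TPM, with 7 of 7 separated, and 6 of the 6 tested fibroblast or vessel markers were separated as well (15.2 to 21.7 and 47.9 to 50.7 TPM). The oligodendrocyte lineage list stood at 35.9 to 41.8 and 93.1 to 113 TPM, with *Mog* and *Sox10* at 0. It was led by *Olig1*, at a mean of 52.0 TPM, and 4 of its 6 tested genes were separated. The microglial list stood at 4.71 to 7.33 and 9.02 to 13.6 TPM, with 2 of 3 tested genes separated. The 6 general neuronal markers stood at 4653 to 4719 and 4406 to 4532 TPM, with 2 of 6 separated. The 6 markers of hippocampal fields stood at 113 to 134 and 125 to 137 TPM, with 2 of 6 separated, in opposite directions. The part of these cell types in the levels of *Grik1*, *Neto1* and *Grik4* was not tested. Between the treatments, the 8 cell type lists had 0 genes called without a block, and those called with the replicate block were *Neurod2*, *Gad1* and *Slc1a2*.

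**Figure D5:**
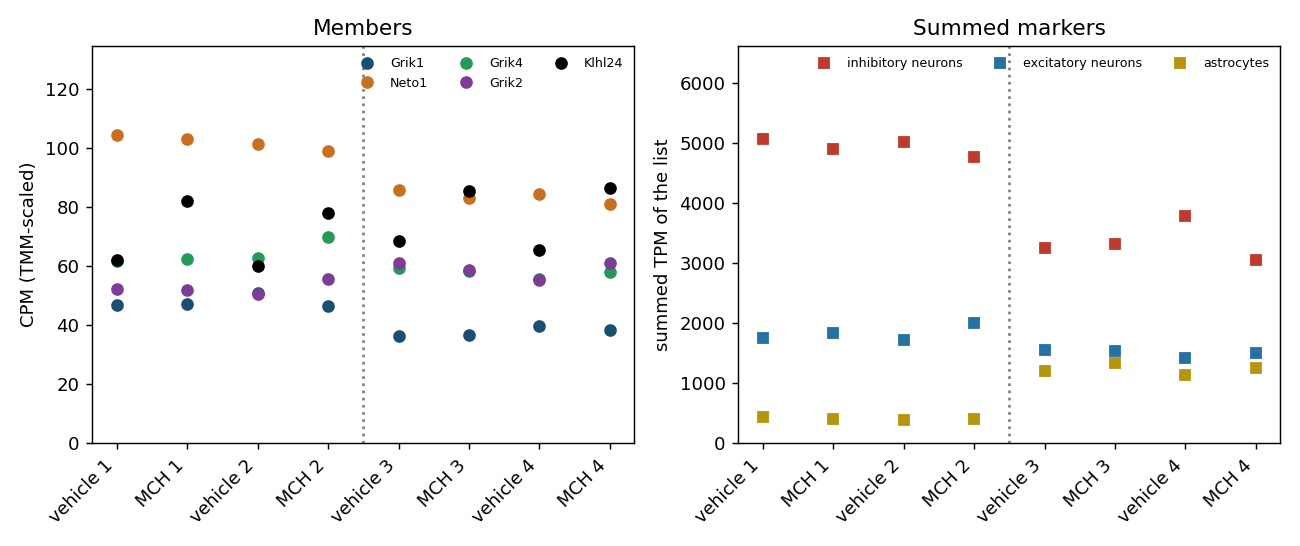
Left, 5 genes in TMM-scaled CPM, and right, the summed TPM of 3 marker lists, with the wells ordered by replicate and the dotted line between replicates 1 and 2 and replicates 3 and 4. *Grik1*, *Neto1* and the inhibitory markers step down across the line (4771 to 5065 against 3058 to 3787 TPM for the markers), and the astrocyte markers step up.

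Other genes of the pathway were read from the same test. Without a block 0 of the 116 list genes tested outside the group were called. Of the kainate receptor partners, which include scaffolds, editing and sumoylation enzymes and the secreted C1q-like ligands, 21 were tested, with 11 above 0 and 10 below and a median log2 fold change of 0.01. They ran from *Grip2*, a PDZ scaffold, at −0.13 ± 0.08 (SE; 26.5 ± 2.31 CPM with vehicle and 24.2 ± 1.73 CPM with MCH, SD, n = 4) to *C1ql2*, a ligand that clusters kainate receptors at mossy fibre synapses, at 0.23 ± 0.09 (SE; 14.2 ± 1.39 and 16.7 ± 1.45 CPM). The adjusted *P* values from edgeR were 0.703 and 0.497. With the sides as a block 1 of the 21 partners was called, beside 668 of all 14962 tested genes in that fit. It was *Cdh2*, the adhesion protein N-cadherin, at 0.09 ± 0.03 (SE) and an adjusted *P* of 0.0437 from edgeR. Its wells overlapped at 241 to 273 CPM with vehicle and 260 to 286 CPM with MCH.

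The 10 genes of the cullin 3 ligase and its neddylation had a median of −0.03, with 8 below 0. *Cul3*, the scaffold of the ligase, was lowest at −0.13 ± 0.04 (SE). Its vehicle wells were at 195 to 211 CPM and its MCH wells at 181 to 191 CPM, without overlap. Its adjusted *P* from edgeR was 0.334 without a block and 0.0197 with the replicate block. Of all tested genes 6.03% had their treatments without overlap, in either direction, and 3.98% were called with the replicate block. *Rbx1*, the RING subunit, was highest at 0.02 ± 0.04 (SE). Of the 35 other *Klhl* genes 28 were tested, with 10 above 0 and 18 below and a median of −0.01. *Klhl40* was lowest at −0.24 ± 0.10 (SE) and *Klhl14* highest at 0.97 ± 0.38 (SE), the latter at only 0.145 to 0.735 CPM. With the replicate block *Klhl11* passed the test as well, at 0.24 ± 0.06 (SE) and an adjusted *P* of 0.049.

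The AMPA and NMDA receptor families gave no call with or without the replicate block. With the sides as a block they gave 1 call, *Gria2*, beside 668 of all 14962 tested genes. The 4 AMPA subunits had a median of 0.0015 and ran from *Gria4* at −0.06 ± 0.04 (SE) to *Gria2* at 0.11 ± 0.04 (SE). *Gria2* had an adjusted *P* of 0.492 without a block, 0.067 with the replicate block and 0.0455 with the sides as a block. Of the NMDA subunits 6 were tested, with a median of 0.10, from *Grin2d* at −0.18 ± 0.08 (SE) to *Grin2b* at 0.35 ± 0.13 (SE). *Grin2b* wells were at 430 to 540 CPM with vehicle and at 542 to 797 CPM with MCH, and its adjusted *P* from edgeR was 0.509 without a block and 0.442 with the replicate block.

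Of the cell type lists, the replicate block called 1 gene in each of 3. They were the excitatory transcription factor *Neurod2* (0.24 ± 0.05, SE, adjusted *P* = 0.0259), the GABA-synthesizing enzyme *Gad1* (−0.10 ± 0.02, SE, adjusted *P* = 0.0349) and the astrocytic glutamate transporter *Slc1a2* (0.15 ± 0.04, SE, adjusted *P* = 0.0353), all from edgeR. With *Cul3* and *Klhl11* these make 5 of the 116 list genes, beside 3.98% of all tested genes in that fit.

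The tested genes whose log2 CPM followed *Klhl24* most closely over the 8 wells were *Wrn* (Pearson's *r* = 0.979), *1110008L16Rik* (0.976), *Lifr* (0.9747), *Cbx2* (0.974) and *Kdm3a* (0.973). These correlations describe 8 wells that share treatments and sides, and these 5 were the highest among all genes tested. *Wrn*, a RecQ helicase, was at 6.41 to 7.65 CPM with vehicle and 8.37 to 9.72 CPM with MCH. *Lifr*, a cytokine receptor, was at 18.4 to 19.6 and 20.6 to 23.6 CPM, and *Kdm3a*, a histone demethylase, at 47.4 to 49.1 and 53.2 to 56.2 CPM. None of the 5 was called between the treatments by edgeR without a block, where their adjusted *P* values ran from 0.151 to 0.459. With the replicate block in edgeR *Wrn* (adjusted *P* = 0.0243), *Lifr* (0.014) and *Kdm3a* (0.0231) were called, and *1110008L16Rik* (0.118) and *Cbx2* (0.147) were not. Since the 5 were picked for likeness to a gene selected on the treatment, their own separation by treatment is no separate result in either fit.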

How the data were processed

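Poly-A RNA of 8 wells of hippocampal neurons, 4 with vehicle and 4 with MCH, was analysed at the level of genes and transcripts. The authors ran nf-core/rnaseq (v.3.0) with salmon on GRCm38. The deposited gene table holds estimated counts, not scaled for depth or length, and 9.13% of them are fractional. Per transcript, the deposited files give estimated counts, effective lengths and TPM, scaled by the authors' salmon run for length and depth. Identifiers were matched to GENCODE vM21, which named 45143 of 45706 genes and 108214 of 109617 transcripts.

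Estimated counts were rounded and tested in R 4.3.3 with edgeR 4.0.16 (TMM factors, filterByExpr by treatment with a count minimum of 10 and a total minimum of 15, robust quasi-likelihood F test, no block). *P* values were Benjamini–Hochberg adjusted over all features tested, with a threshold of 0.05. DESeq2 1.42.0 and limma voom 3.58.1 were alternatives, as were other size factors, no filter, blocks, a length offset and leaving out each well. TPM were summed over a gene's transcripts. The steps were tested on simulated data. Library totals of 26083936 to 31844861 put 3 counts, the floor taken for detection, at 0.0942 to 0.115 CPM, which covers counting error only.

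Treatments share replicate numbers in the labels. Deviations from the treatment means correlated at 0.445 to 0.545 in the 4 same-number pairs, so the numbers were taken to pair the wells. Only 3 of the 8 wells correlated best with their own number, and the first principal component of the deviations, with 58.4% of the variance, parted the sides, so sides and numbers cannot be told apart as the source of these correlations. The pairing comes from these values only, since the sources do not say what a number marks. The sides, replicates 1 and 2 against 3 and 4, were read from the counts. The members and lists were chosen with earlier results of these data known. Named are the 8 members, their transcripts with at least 10% of the reads, the lowest and highest log2 fold change of a pathway list, the 5 genes closest to *Klhl24* and cell type markers at 0 or leading their list, together with list genes called under either block, which were picked once their values were known. The extremes of the cell type lists were left out. Dixon's test at its 95% critical value found a well far from the others of its treatment in 0 of 112 groups of 4. A further list was tested with the others but is not reported here.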

Additional observations from a re-analysis of the deposited data

How the results depend on the processing

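The number of genes called between MCH and vehicle was 35 without a block and depended on the setting. It was 596 with the replicate block, 668 with the sides as a block, 170 with DESeq2 and 7 with the length offset, and 4 to 29 when single wells were left out (4 without vehicle well 4, 5 without vehicle well 1, 9 without vehicle well 2, 12, 10 and 7 without MCH wells 2, 3 and 4). The cause was not tested. Among the 7 *Grik* and *Neto* genes 0 were called in every one of these fits. Of the 116 list genes tested, those called rose from 0 to 5 with the replicate block and to 4 (*Cdh2*, *Cul3*, *Gria2* and *Gad1*) with the sides as a block. They stand beside the 596 and 668 of all 14962 tested genes called in these fits. Transcripts called went from 0 to 6 with the sides as a block and stood at 0 to 1 without single wells. Among the *Grik* and *Neto* genes, the list genes and the transcripts, the replicate block changed no other call. When single wells were left out, values changed sign for *Grik1* (−0.11 to 0.049), *Neto1* (−0.098 to 0.022) and *Grik4* (−0.00041 to 0.094), and for the transcripts ENSMUST00000023652 (−0.078 to 0.12), ENSMUST00000105487 (−0.0057 to 0.092) and ENSMUST00000114865 (−0.038 to 0.10). *Klhl24* stayed at 0.35 to 0.41. As the gene was selected on this contrast, that range describes it and is not evidence that it changed. The counts of genes separated by side moved by less than 1.5 times with the size factors of DESeq2. Levels in percent of *Grik5* moved by less than their spread, but the settings tried could hardly move them. Leaving out short transcripts removed none of the listed transcripts of these genes, and CPM per kilobase again scales their reads for length. The transcript models were not varied, so whether the levels depend on them was not tested.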
